A study of Mus musculus with 6 samples.

Results

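The ID (inhibitor of DNA binding) genes Id1, Id2, Id3 and Id4 and the E-protein genes Tcf3, Tcf4 and Tcf12 were followed in 6 primary mouse lung tumour lines. These 7 genes were chosen by symbol and not by a filter on their values, with earlier results of these data known. They were represented by 13 of the 41174 probes on the array, 7 for ID genes and 6 for E proteins, and by 7 of the 19848 features tested (1 probe per gene, the brightest). Id3 had 1 probe and each of the other 6 genes had 2. Probes were assigned through their transcript accessions, and probes of Tcf7l1 and Tcf7l2, which have also been called Tcf3 and Tcf4, were not counted as members.

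E proteins are basic helix-loop-helix (bHLH) transcription factors that bind E-box DNA as homodimers or together with lineage-restricted class II bHLH proteins such as NEUROD1 and the TWIST proteins. ID proteins carry the helix-loop-helix but lack the basic DNA-binding region, so they pair with E proteins and hold them off DNA. ID genes are well known as targets of bone morphogenetic protein (BMP) signalling through SMAD proteins, and class II bHLH proteins with their E-protein partners drive neuronal and neuroendocrine differentiation.

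The lines came from lung tumours of C57BL/6J mice with the genotype written Rb1L/L, Trp53L/L, a model of small cell lung carcinoma in which both tumour suppressor genes are targeted. This genotype is given for the lines of both groups, and the delivery or driver of a recombinase is not given in the sources used here. Of the 6 lines, 3 are labelled non-SMC and 3 SMC, an abbreviation that the labels do not spell out. Each SMC line is labelled as the pair of 1 non-SMC line, with pairs 1 and 3 female and pair 2 male, and all were grown in medium with fetal bovine serum. No treatment, time or age is given. RNA of each line was hybridised to 1 single-colour Agilent array, without technical repeats. Levels are given on a log2 scale on which 0 is a signal equal to the 75th percentile of the same array. A level can be compared between lines for the same probe, not between probes. The labels give each pair its own identifier, but do not say which animals the pairs came from or that the lines are separate cultures, so p-values measure the spread between these 3 pairs.

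Between 26385 and 28185 probes per array were well above background and the 75th percentile lay between 485 and 696 intensity units. A slide shared by 4 arrays held SMC 1, SMC 2, non-SMC 2 and non-SMC 3, and the arrays of non-SMC 1 and SMC 3 lay on slides of their own, so pair 2 was the only pair on a single slide. Of all features, 31 rose and 602 fell in SMC lines at an adjusted p under 0.05 (limma with pair as a block, Benjamini-Hochberg adjustment). Scaled to the array median, 239 rose and 974 fell. The neuroendocrine markers, 14 genes such as Chga and Insm1, had a summed level of 256 to 330 times the 75th percentile in SMC lines and 20.3 to 139 times in non-SMC lines. Non-SMC 2 was the highest of its group. None of the 14 passed the test (limma), and 12 were higher at an unadjusted p under 0.05, beside 14.9% of all features. Mesenchymal markers, 15 genes such as Col1a1 and Col3a1, summed to 664 to 1400 times in non-SMC lines and 11.1 to 17.7 times in SMC lines. Of these, 9 of 14 tested fell, beside 3.03% of all features. Epithelial markers varied within both groups, from 3.43 to 659 times in non-SMC and from 22.7 to 532 times in SMC lines. Of 12 endothelial markers, 5 to 6 were well above background on each array, with summed levels of 0.670 to 12.9 times in non-SMC and 4.95 to 21.9 times in SMC lines. Vwf, Esam, Plvap and Egfl7 were well above background on all 6 arrays, and Pecam1, Cdh5, Tie1, Emcn and Cldn5 on none. Leukocyte markers were well above background for 12 of 13 genes in non-SMC 3, with a summed level of 15.3 times, against 5 to 9 genes and 0.188 to 4.26 times in the other 5 lines. Of 5 leukocyte markers tested, 1 fell, Cd14, beside 3.03% of all features. Cd14 was at log2 levels of 0.66, 1.96 and 3.54 in non-SMC lines 1, 2 and 3. In SMC lines 1, 2 and 3 it was at -6.47, -4.53 and -5.97. Ptprc, the pan-leukocyte CD45 gene, was well above background on 1 non-SMC and 2 SMC arrays by at least 1 of its 3 probes.

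The DNA before the start sites of Id2, Id4 and Id3 is shown because these genes include the largest fitted differences in the ID family (Id2 and Id4) and the one whose sign differed between pairs (Id3). The RefSeq promoter set used here (build GRCm38.p6) had entries for 5 of the 7 members, and none for Id1 and Tcf4. Each sequence is the 250 bases before the start site, 5′ to 3′ on the gene's strand. Capitals mark the letters CANNTG (the E-box, which E proteins bind), CCAAT or its reverse ATTGG (the CCAAT box), and GGCGCC (a GC-rich palindrome described in SMAD-responsive elements of Id genes), searched on both strands. The windows are chr12:25096093-25096342 on the minus strand for Id2, chr13:48260866-48261115 on the plus strand for Id4 and chr4:136143572-136143821 on the plus strand for Id3.
Id2: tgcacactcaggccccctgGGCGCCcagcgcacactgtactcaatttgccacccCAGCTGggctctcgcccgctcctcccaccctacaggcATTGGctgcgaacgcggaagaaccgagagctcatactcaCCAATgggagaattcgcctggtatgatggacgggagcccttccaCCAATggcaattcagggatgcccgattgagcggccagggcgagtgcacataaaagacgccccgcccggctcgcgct
Id4: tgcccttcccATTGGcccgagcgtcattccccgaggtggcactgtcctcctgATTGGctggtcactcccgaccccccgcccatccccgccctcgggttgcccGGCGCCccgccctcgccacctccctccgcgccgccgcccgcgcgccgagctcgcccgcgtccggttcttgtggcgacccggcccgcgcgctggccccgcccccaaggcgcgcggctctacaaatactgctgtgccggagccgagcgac
Id3: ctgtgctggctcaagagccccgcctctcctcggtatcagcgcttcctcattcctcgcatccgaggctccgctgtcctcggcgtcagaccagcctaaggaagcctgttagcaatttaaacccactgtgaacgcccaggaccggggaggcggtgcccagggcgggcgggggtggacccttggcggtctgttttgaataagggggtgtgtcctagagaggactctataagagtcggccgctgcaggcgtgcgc

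The Id2 window held 1 E-box, with the letters CAGCTG, whose first base lay 196 bases before the start site. It also held CCAAT boxes 159, 120 and 76 bases before the start site, the one at 159 on the reverse strand, and 1 GGCGCC at 231. The Id4 window held 2 CCAAT boxes on the reverse strand, at 240 and 198, and 1 GGCGCC at 148, and no E-box. The Id3 window held none of these letters, which says only that they are not in this window. Among 32851 windows of the same length in the table, CANNTG was present in 66.2%, CAGCTG in 13%, CCAAT in 33.8% and GGCGCC in 9.59%. At least 3 CCAAT boxes were present in 2.79% of windows and at least 2 in 10.1%. G and C made up 62.8% of the Id2 and Id3 windows and 75.6% of the Id4 window. A match describes the sequence and is no evidence of binding, which was not measured.

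None of the 7 members passed the test across all features (limma, adjusted p under 0.05), against 3.19% of all features. At an unadjusted p under 0.05, Id2 and Id4 passed, 2 of 7 members, against 26.7% of all features. Id1, Id2 and Id4 were higher in SMC lines in all 3 pairs, which held for 33.6% of all features. The groups did not overlap for Id1 and Id2, both higher in SMC lines, and 22.8% of all features were higher in this way. These member counts lie near the shares of all features. In the fit of every probe on its own, none of the 13 member probes passed, against 3.41% of all probes. All 13 were well above background on all 6 arrays and none was saturated.

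**Figure D1:**
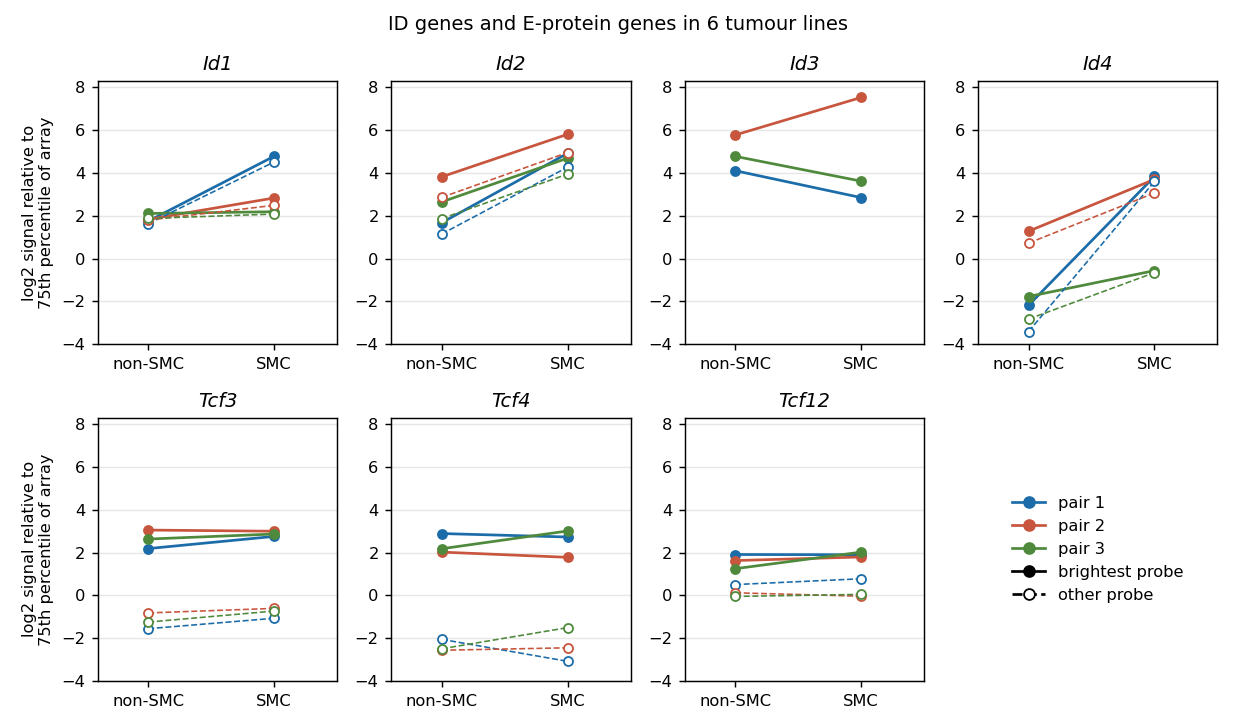
Level of each member in the 3 non-SMC and 3 SMC lines (vertical axis, log2 signal, with 0 at the array's 75th percentile), with a colour for each labelled pair, filled points and solid lines for the brightest probe and open points and dashed lines for the other probe. By the brightest probe, Id2 lies at 4.69 to 5.81 in the SMC lines and at 1.68 to 3.82 in the non-SMC lines. The Id3 lines of pair 2 slope up and those of pairs 1 and 3 slope down. For the E proteins, the brightest probes change by at most 0.83 within a pair, for Tcf4 in pair 3, where Tcf12 rises by 0.77.

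Id2 had the smallest p-value of the family. Its product restrains bHLH-driven differentiation and can bind the retinoblastoma protein (probe A_51_P219074, transcript NM_010496). Its log2 level was 1.68, 3.82 and 2.65 in non-SMC lines 1, 2 and 3 and 4.92, 5.81 and 4.69 in SMC lines 1, 2 and 3. Each SMC line lay above every non-SMC line, and within both groups the line of pair 2 was the highest. The group means were 2.72 ± 1.07 (SD, n = 3) in non-SMC and 5.14 ± 0.59 (SD, n = 3) in SMC lines. The difference was 2.43 ± 0.40 (SE, 3 pairs), a 5.37-fold higher signal with a 95% confidence interval from 2.51-fold to 11.5-fold. Within pairs 1, 2 and 3 it was 3.24, 1.99 and 2.04. Its p-value was 0.00347 and its adjusted p 0.0733 (limma), so the difference did not pass. The other Id2 probe gave a difference of 2.43 with an adjusted p of 0.058 over all probes. Scaling to the array median gave a difference of 2.34 with an adjusted p of 0.0437, and normexp background correction 2.45 with an adjusted p of 0.0408, both past the threshold. Over the 20 alternatives the adjusted p ranged from 0.0264 to 0.248.

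Id4, a family member described in neural progenitors and in mammary and brain tumours, had the widest interval among the ID genes (probe A_52_P449871, transcript NM_031166). Its log2 level was -2.18, 1.28 and -1.77 in non-SMC lines 1, 2 and 3 and 3.84, 3.70 and -0.56 in SMC lines 1, 2 and 3. SMC 3 lay below non-SMC 2, so the groups overlapped, although each SMC line lay above its own partner. The difference was 3.22 ± 1.05 (SE, 3 pairs), with a 95% confidence interval from 0.32 to 6.11, a p of 0.0366 and an adjusted p of 0.164 (limma). Within pairs it was 6.02, 2.42 and 1.21, or 64.8-fold, 5.36-fold and 2.31-fold higher in the SMC line. Without pair 1 it was 1.82. The other Id4 probe gave a difference of 3.84 with an adjusted p of 0.142. Non-SMC 2, the non-SMC line with the highest Id2 and Id4 levels, also had the highest summed neuroendocrine markers of its group, at 139 times the 75th percentile. The part of cell composition in these levels was not tested, and in RNA from a whole culture fewer cells of a type and less RNA per cell cannot be told apart.

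Id1, a BMP target best known from vessel-forming and stem-like cells, was higher chiefly in SMC 1 (probe A_51_P385786, transcript NM_010495). Its log2 level was 1.75, 1.84 and 2.11 in non-SMC lines 1, 2 and 3 and 4.78, 2.83 and 2.19 in SMC lines 1, 2 and 3. The non-SMC lines lay close together and the SMC lines did not, with SMC 3 only just above non-SMC 3. The SD was 0.19 among non-SMC and 1.35 among SMC lines (n = 3 each). The difference was 1.37 ± 0.67 (SE, 3 pairs; 95% confidence interval -0.48 to 3.22) with an adjusted p of 0.273 (limma). Without pair 1 it was 0.54. The pair differences were 3.03, 1.00 and 0.08, so the order of the pairs was the same as for Id4. The other probe gave 1.26.

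Id3, which acts beside Id1 in many tissues, went in opposite directions in different pairs (probe A_51_P380178, transcript NM_008321). Its log2 level was 4.11, 5.78 and 4.78 in non-SMC lines 1, 2 and 3 and 2.85, 7.53 and 3.62 in SMC lines 1, 2 and 3. SMC 2 was the highest of all lines and SMC 1 the lowest, so the SMC group spanned the whole non-SMC group. The signal was 2.39-fold lower in the SMC line of pair 1, 3.37-fold higher in that of pair 2 and 2.23-fold lower in that of pair 3. The fitted difference was -0.22 ± 0.75 (SE, 3 pairs), with a 95% confidence interval from -2.28 to 1.83 and an adjusted p of 0.872 (limma). That interval does not show that the groups were alike, since it spans a 3.57-fold higher signal in SMC lines.

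**Figure D2:**
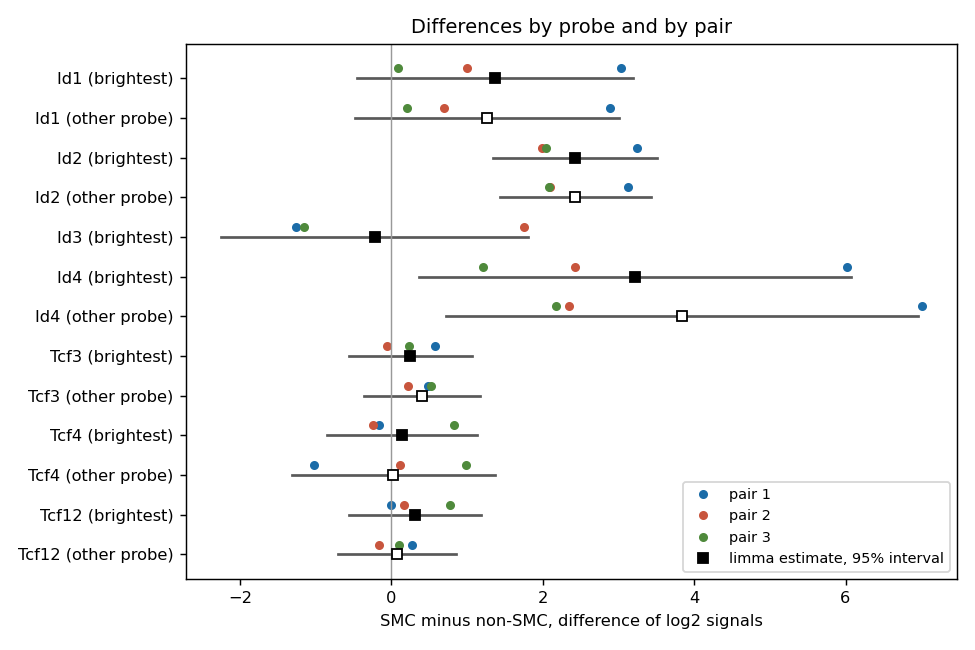
SMC minus non-SMC difference for each of the 13 member probes (log2, horizontal axis), with the 3 pairs as coloured points and the fitted difference of that probe as a square (filled for the brightest probe) on its 95% confidence interval, before any adjustment. The intervals of both Id2 probes and both Id4 probes lie above 0, and those of the other 9 probes span 0.

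The E-protein differences were small. Tcf3, which encodes E12 and E47 and is best known from lymphocyte development, had log2 levels of 2.18, 3.05 and 2.63 in non-SMC lines 1, 2 and 3 and of 2.75, 2.996 and 2.86 in SMC lines 1, 2 and 3 (probe A_51_P394471, transcript NM_011548). All 3 SMC lines lay within the range of the non-SMC lines. The difference was 0.25 ± 0.30 (SE, 3 pairs; 95% confidence interval -0.59 to 1.09) with an adjusted p of 0.630 (limma). The interval reaches from a 0.666-fold to a 2.12-fold signal in SMC lines.

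Tcf4, which encodes E2-2, known from the nervous system and plasmacytoid dendritic cells, had log2 levels of 2.89, 2.02 and 2.18 in non-SMC lines 1, 2 and 3 and of 2.73, 1.78 and 3.01 in SMC lines 1, 2 and 3 (probe A_52_P424847, transcript NM_013685). SMC 3 was the highest line and SMC 2 the lowest, and the groups overlapped. The difference was 0.14 ± 0.37 (SE, 3 pairs; 95% confidence interval -0.87 to 1.15) with an adjusted p of 0.829 (limma).

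Tcf12, which encodes HEB, a partner in muscle, neural and lymphoid development, had log2 levels of 1.91, 1.62 and 1.24 in non-SMC lines 1, 2 and 3 and of 1.90, 1.79 and 2.02 in SMC lines 1, 2 and 3 (probe A_52_P20048, transcript NM_011544). SMC 3 was the highest and its partner non-SMC 3 the lowest. The difference was 0.31 ± 0.32 (SE, 3 pairs; 95% confidence interval -0.58 to 1.20) with an adjusted p of 0.570 (limma). The intervals of Tcf3, Tcf4 and Tcf12 reach up to a 2.12-fold, 2.22-fold and 2.30-fold signal in SMC lines, so differences of that size are within the error of 3 pairs.

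For the 6 genes with 2 probes, the probes were compared. Over the 6 arrays, the probes of Id1, Id2 and Id4 correlated at 0.996, 0.996 and 0.992 and those of Tcf3 at 0.935. The probes of Tcf4 correlated at 0.442 and those of Tcf12 at 0.461, over ranges of 1.23 and 0.77 log2 units for the brighter probe. The fitted differences of both probes lay 0.63 apart for Id4, the most of the 6, 0.11 for Id1, 0.01 for Id2 and 0.12 to 0.24 for the E proteins. The other probes gave differences of 0.41 for Tcf3, 0.03 for Tcf4 and 0.07 for Tcf12.

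The spread over the 6 lines differed between the families. By the brightest probe, between the lowest and the highest line, Id1 spanned 3.03, Id2 4.13, Id3 4.68 and Id4 6.02 log2 units. Tcf3 spanned 0.87, Tcf4 1.23 and Tcf12 0.77 log2 units. Each ID gene had a wider span than each E-protein gene. Among the 16320 features well above background on all 6 arrays, the median span was 1.40, and 84.9%, 91.0%, 93.0% and 96.1% of them had a smaller span than Id1, Id2, Id3 and Id4. For Tcf3, Tcf4 and Tcf12 that share was 20.3%, 41.7% and 14.9%. The other Tcf4 probe ran from -3.08 in SMC 1 to -1.51 in SMC 3, a span wider than the median of 1.40. These shares are descriptions of 7 genes, without a test.

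**Figure D3:**
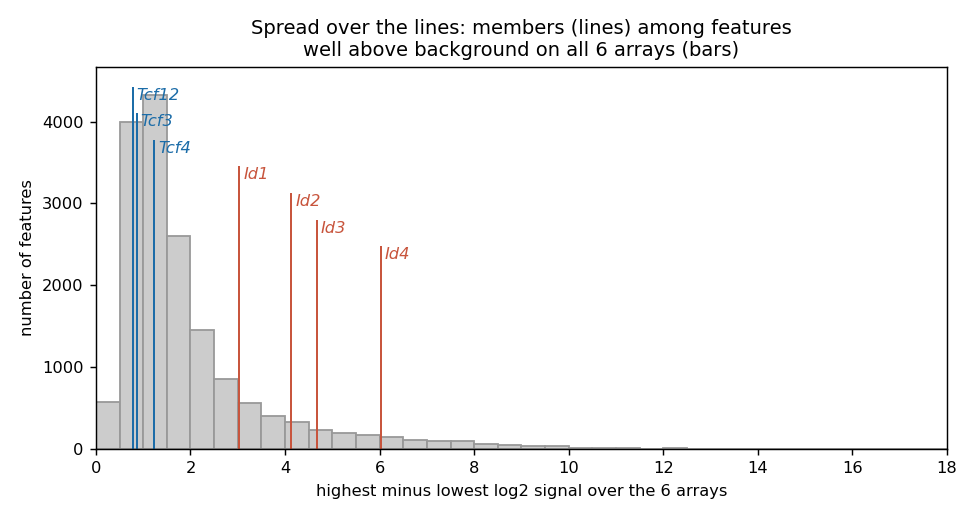
Number of features (vertical axis) by the span between the lowest and highest of the 6 arrays (log2, horizontal axis) among the 16320 features well above background on all arrays, with the 7 members marked by their brightest probe. The ID genes lie at 3.03 to 6.02, to the right of the median of 1.40, and the E-protein genes at 0.77 to 1.23, to its left.

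Within the family, levels over the 6 lines ran together for some members and apart for others. The points share arrays and scaling, and each correlation is given as a description. Id2 and Id4 correlated at r = 0.852, Id1 and Id4 at 0.744, Id2 and Tcf3 at 0.803 and Id1 and Id2 at 0.559. Id3 correlated at -0.343 with Id1 and at -0.881 with Tcf4, whose lowest line, SMC 2, was the highest for Id3. With the other Tcf4 probe, which was lowest in SMC 1, the correlation was -0.06. Tcf3 and Tcf12 correlated at -0.06.

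Among 11393 named genes well above background on all 6 arrays, those with the level most like each member over the 6 arrays, by Pearson's r, were Nrde2 (0.988) and Adal (0.986) for Id1, and Hirip3 (0.996) and Bdh1 (0.995) for Id2. For Id3 they were Pnpt1 (0.996) and Gpsm3 (0.977), and for Id4 Tesmin and Prdm4 (0.996 each). For the E proteins they were Tbc1d17 (0.994) and Fgfr2 (0.987) with Tcf3, Nipsnap3b (0.994) and Olfr414 (0.981) with Tcf4, and B4galt6 (0.994) and Vash2 (0.987) with Tcf12. With 6 arrays and this many genes, coefficients of this size were found for each of the 7 members. Hirip3, the closest to Id2, was at 2.33 to 3.42 in non-SMC and 3.82 to 4.23 in SMC lines, a difference of 1.17 ± 0.32 (SE) with an adjusted p of 0.134 (limma).

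The tested class II bHLH partners of E proteins had differences in both directions, 5 above and 6 below 0. Of 41 listed genes, 40 had a probe and 11 entered the test, since the others were not well above background on all arrays of either group. None of the 11 rose and 2 fell, beside 0.156% and 3.03% of all features. An unadjusted p under 0.05 (limma) was reached by 2 higher and 2 lower genes, beside 14.9% and 11.8% of all features, and the median difference was -0.07, beside 0.18 over all features. Neurog3 was higher in the SMC line of pairs 1, 2 and 3, by 4.33, 4.33 and 1.38 on the log2 scale. It did not pass (adjusted p = 0.112, limma) and was well above background on 2 non-SMC and 3 SMC arrays. The 2 that fell were Twist2 and Twist1, regulators of mesenchymal cells. Twist2 was at 1.95, 0.30 and 1.20 in non-SMC lines 1, 2 and 3 and was not well above background in any SMC line, at least 175-fold lower (adjusted p = 0.0120, limma). Twist1 was at 0.32, -0.94 and -0.78 in the non-SMC lines and likewise not well above background in any SMC line, at least 56.4-fold lower (adjusted p = 0.0172). For such a bound, the SMC signal was replaced on each array by the weakest signal of any probe well above background there, unless the measured signal was stronger, and the non-SMC mean was set against the mean of these values. These bounds hold for this processing: with normexp Twist2 fell by 4.54 and Twist1 by 3.08 on the log2 scale. The mesenchymal markers, which fell for 9 of 14 genes, lay in the same direction, and their part in the Twist1 and Twist2 differences was not tested.

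Neurod1, a neuroendocrine and neuronal differentiation factor, was well above background in pair 2 alone, at -3.63 in non-SMC 2 and -1.67 in SMC 2.

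**Figure D4:**
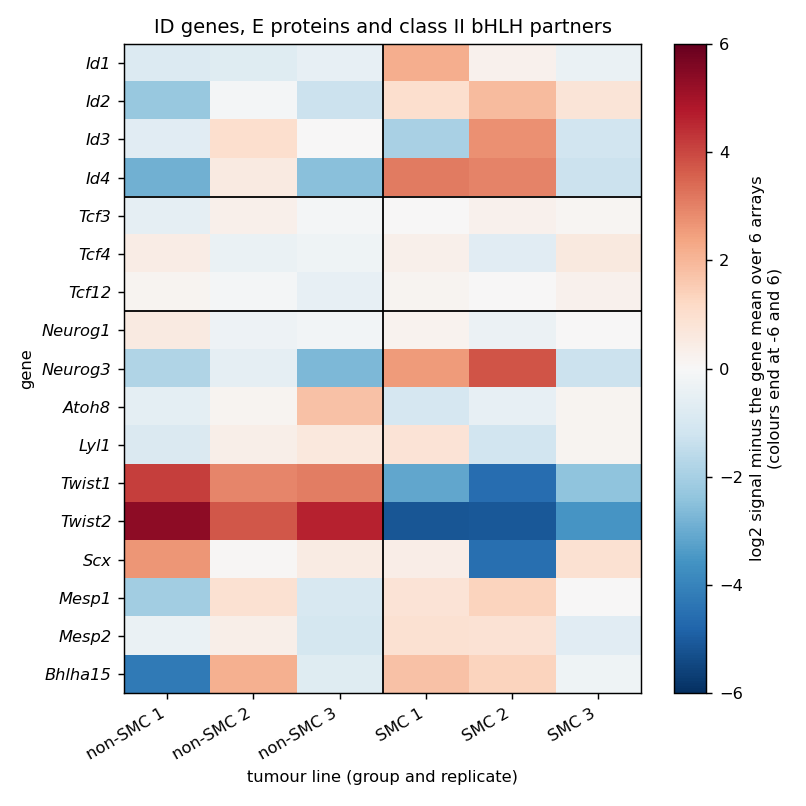
Colour map of the 7 members and 10 tested class II bHLH partners (rows) in the 6 lines (columns), where colour is the log2 signal minus the gene's mean over the 6 arrays, red above and blue below it. Twist1 and Twist2 are red in the non-SMC lines and blue in the SMC lines, where their signals are not well above background, and the 3 E-protein rows are pale throughout.

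Upstream of the ID genes, the list of BMP ligands, receptors and SMADs held 25 genes, TGF-beta receptors included. Of these, 24 had a probe and 19 entered the test. None rose and 2 of 19 fell, beside 3.03% of all features, and the median difference was -0.01. An unadjusted p under 0.05 (limma) was reached by 2 higher and 5 lower genes, beside 14.9% and 11.8% of all features. Tgfbr2, the type II receptor for TGF-beta, was at 3.45, 4.21 and 4.50 in non-SMC lines 1, 2 and 3 and at -7.99, -4.25 and -7.09 in SMC lines 1, 2 and 3, of which SMC 2 alone was well above background. It fell by 10.50 ± 0.76 on the log2 scale (SE, 3 pairs; adjusted p = 0.015, limma). That size rests on SMC signals not well above background. It fell by 9.71 with such signals raised to the array's floor, the weakest signal of any probe well above background. With normexp background correction it fell by 6.83. Bmp4, a ligand that induces ID genes in many cell types, was at -0.16, -0.58 and 0.33 in non-SMC lines 1, 2 and 3 and at -3.58, -6.85 and -5.05 in SMC lines 1, 2 and 3. It fell by 5.02 ± 0.65 (adjusted p = 0.047, limma), a call lost in 9 of 19 alternatives. In SMC 2 it was not well above background, and it fell by 4.81 with that signal at the floor. With normexp it fell by 2.81. The signal-carrying Smad1, Smad5 and Smad4 were at 3.26 to 4.42 in all 6 lines, with differences of -0.20, 0.30 and 0.37 that did not pass. Smad9, another signal-carrying SMAD, was at -4.10, -6.26 and -7.30 in non-SMC lines 1, 2 and 3. In SMC lines 1, 2 and 3 Smad9 was at -3.50, -2.99 and -2.66. Its difference of 2.84 ± 0.88 (SE, 3 pairs; adjusted p = 0.154, limma) did not pass either. Smad9 was well above background on 1 non-SMC and 3 SMC arrays.

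The BMP antagonists and inhibitory SMADs held 15 genes, of which 14 had a probe and 13 entered the test. None rose and 2 of 13 fell, beside 3.03% of all features. The median difference was -0.94, with 12 of 13 differences below 0, beside 41.7% of all features. An unadjusted p under 0.05 (limma) was reached by 1 higher gene, Bambi, and 6 lower genes, beside 14.9% and 11.8% of all features. Bmper, a secreted modulator that binds BMPs, was at 0.94, 1.47 and 2.15 in non-SMC lines 1, 2 and 3 and at -4.41, -6.56 and -2.82 in SMC lines 1, 2 and 3. It fell by 6.12 ± 0.73 on the log2 scale (SE, 3 pairs; adjusted p = 0.040, limma). Grem1, a secreted BMP antagonist of stromal cells, was at 0.29, -2.35 and 1.23 in non-SMC lines 1, 2 and 3 and at -5.27, -7.87 and -4.41 in SMC lines 1, 2 and 3, and fell by 5.57 ± 0.28 (adjusted p = 0.008). Neither gene was well above background in SMC 2. With that signal at the floor Bmper fell by 5.99 and Grem1 by 5.02, and with normexp Bmper fell by 4.12 while Grem1 was at -2.96 and did not pass (adjusted p = 0.0653). Bmper lost its call in 7 of 19 alternatives and Grem1 in 9 of 19. The mesenchymal markers lay in the same direction as these genes too.

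Among cofactors of E proteins and enzymes of ID and E-protein turnover, 21 genes were listed, 20 had a probe and 17 entered the test. None passed in either direction, beside 3.19% of all features. At an unadjusted p under 0.05 (limma), 4 were higher and 0 were lower, beside 14.9% and 11.8% of all features. The median difference of the 17 was 0.63, beside 0.18 over all features. The 2 with the largest differences were Lmo1, a LIM-only adaptor in bHLH complexes, and Cbfa2t3, a corepressor of the ETO family that binds E proteins. Lmo1 was at -7.28, 1.66 and -0.19 in non-SMC lines 1, 2 and 3 and at 1.48, 3.48 and 1.68 in SMC lines 1, 2 and 3, a difference of 4.15 ± 1.64 (SE, 3 pairs; adjusted p = 0.207, limma). Its signal in non-SMC 1 was not well above background, and without pair 1 the difference was 1.85, smaller than that of Cbfa2t3 (2.52). Cbfa2t3 was at -3.29, 1.01 and -3.35 in the non-SMC lines and at 2.58, 2.32 and 0.39 in the SMC lines, a difference of 3.64 ± 0.97 (adjusted p = 0.132). Non-SMC 2 was the highest non-SMC line for both, as it was for Id2 and Id4. Usp1, the enzyme that removes ubiquitin from ID proteins, was at 2.70 to 3.66 in non-SMC and 3.66 to 3.82 in SMC lines and did not pass. Rb1, the targeted gene, whose product ID2 can bind, was at -2.07, -0.38 and -2.09 in non-SMC and 0.63, 0.63 and 0.27 in SMC lines, a difference of 2.02 ± 0.45 (adjusted p = 0.113). Whether the Rb1 probe lies in the targeted part of the gene is not given in the sources used here, so its signal does not check the genotype.

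Of 17 genes described as E-protein or ID targets, 16 had a probe and 11 entered the test. None rose and 2 of 11 fell, beside 3.03% of all features, and the median difference was -0.86. An unadjusted p under 0.05 (limma) was reached by 3 higher and 6 lower genes, beside 14.9% and 11.8% of all features. Cdkn2b, the cell-cycle inhibitor p15, was at 4.05, 3.74 and 4.70 in non-SMC lines 1, 2 and 3 and at -0.47, -3.24 and -1.95 in SMC lines 1, 2 and 3. It fell by 6.05 ± 0.61 on the log2 scale (SE, 3 pairs; adjusted p = 0.029, limma). Ebf1, an early B-cell factor that stromal cells also express, was at 0.25, -1.45 and 0.01 in non-SMC lines and was not well above background in any SMC line, at least 59.7-fold lower (adjusted p = 0.0124), and fell by 3.02 on the log2 scale with normexp. All 8 genes named as fallen in the 5 lists lost the call when pair 3 was left out, with adjusted p from 0.0618 to 0.193 (limma). In that fit no feature was called, while an unadjusted p under 0.05 was reached by 924 features in the higher and 1743 in the lower direction. Without pair 1, 5 of the 8 lost the call, namely Twist1 (adjusted p = 0.0840), Tgfbr2 (0.0769), Bmp4 (0.0563), Bmper (0.137) and Ebf1 (0.0518). Without pair 2, Bmp4 (0.0675) and Cdkn2b (0.0513) lost it.

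**Figure D5:**
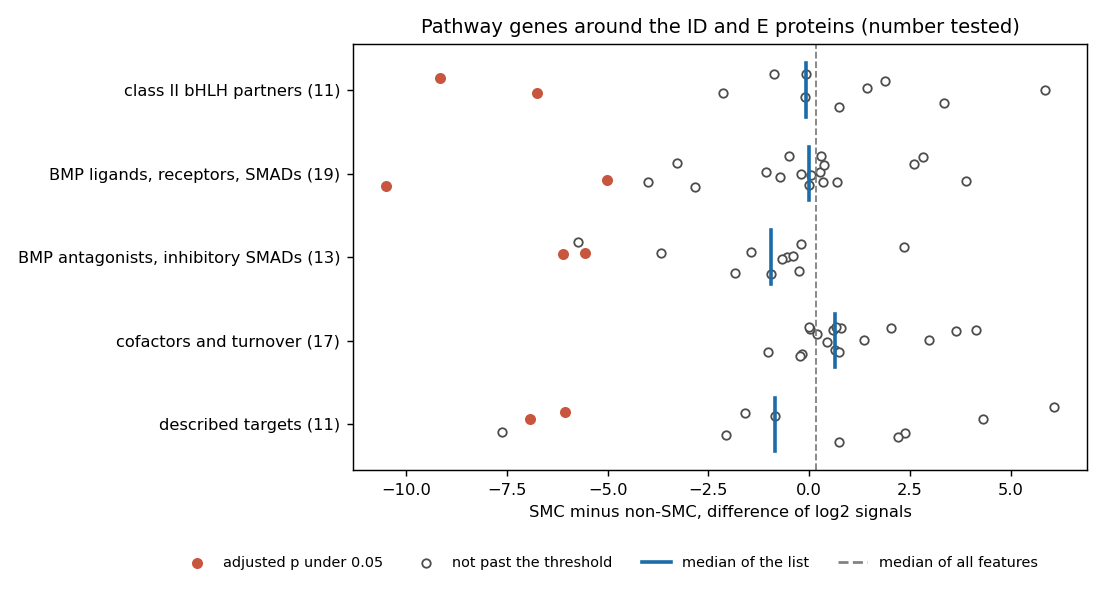
SMC minus non-SMC difference (log2, horizontal axis) of each tested gene in the 5 lists around the ID and E proteins, with filled points for genes past the test, a solid bar at the median of each list and a dashed line at the median of all features (0.18). The 8 genes past the test all lie below -5, and the list medians range from -0.94 to 0.63.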

How the data were processed

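RNA of 6 lines (3 labelled pairs) was measured on Agilent 1-colour arrays. Per the file headers the authors ran Feature Extraction 10.7.3.1, written 10.7 in the submitters' processing notes. The deposited processed intensity is, per the file headers, background-subtracted and not normalized between arrays. The authors' deposited series table of log2 values has equal quantiles in all columns (medians 5.07), and each column correlated at 0.996 or more with its own array and at 0.960 or less with any other. It was used only as a check. Scale and direction follow from this match, and it is not centred per gene. Other upstream steps: not given in the sources used here.

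The 1639 control spots and flagged outliers were dropped and repeated spots averaged. Processed intensity was put on a log2 scale after division by the array's 75th percentile. Probes entered the test if every array of either group had them well above background. The files used here hold no gene name column, so genes were named by transcript accession through a RefSeq table (GRCm38.p6), which matched 27479 of 41174 probes. The brightest kept probe stood for a gene, unnamed probes stayed as features, and every member probe was also fitted. limma 3.58.1 in R 4.3.3 (lmFit and eBayes, pair as a block, two-sided, Benjamini-Hochberg over 19848 features) had 2 residual and 2.07 prior degrees of freedom. With 3 lines per group, the number of arrays limits the precision. The pairs come from the labels. Within pairs 1, 2 and 3, deviations from group means had correlations of -0.01, 0.14 and 0.00.

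Members, lists and rules were chosen with earlier results of these data known. Beside the members, Neurod1 and Rb1 were always named (1 further gene of that rule is not reported here), with up to 4 called genes per list, by size of difference, or the 2 largest differences where none passed. For each member the 2 genes with the highest correlation were named. Names outside this rule (Smad1, Smad5, Smad4, Smad9, Neurog3, Usp1, the markers, Bambi and the genes added under other observations) were chosen after their values were seen. The alternatives changed the scaling, background correction, filter, probe, block, slide and lines included. Normexp was run on the median spot intensity, a choice made after seeing the files.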

Additional observations from a re-analysis of the deposited data

Results flagged for a closer look

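Id3 was higher in the SMC line in the male pair, by 1.75 on the log2 scale, and lower in both female pairs, at -1.26 and -1.16. By its brightest probe, Tcf3 differed by -0.054 in the male pair and by 0.57 and 0.23 in the female pairs. The other Tcf3 probe was higher in the SMC line of every pair, by 0.21 in the male pair and by 0.49 and 0.52 in the female pairs. The flags were taken from the probe that stands for each gene, where the pair labelled male moved one way and both pairs labelled female the other. The difference between sexes was not tested, since 1 pair is male, and that pair is also the only one on a single slide.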

How the results depend on the processing

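Id1, Id2, Id4, Tcf3 and Tcf12 kept their direction in all 20 alternatives, from 0.54 to 2.02 for Id1, 1.91 to 2.98 for Id2, 1.82 to 4.66 for Id4, 0.03 to 0.46 for Tcf3 and 0.08 to 0.47 for Tcf12. In leave-one-out fits Id3 ranged from -1.65 to 0.69 and Tcf4 from -0.20 to 0.51, crossing 0. The second Tcf4 probe was at -0.056 with median scaling, -0.24 on the shared slide alone and -0.46 to 0.55 in leave-one-out fits. The second Tcf12 probe was at -0.012 with median scaling and -0.19 to 0.23 in leave-one-out fits. The cause was not tested.

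No member passed in the planned paired fit, and 1, Id2, passed with median scaling, with normexp, and, without the replicate block, when non-SMC replicate 2 was left out. Members past the threshold in leave-one-out fits numbered 0 to 1. With no replicate block, the Id2 difference was 2.43 (adjusted p = 0.0725) and the second Id2 probe passed (adjusted p = 0.0485), as it did with median scaling (0.0354), normexp (0.0324) and, unblocked, without non-SMC replicate 2 (0.0185). Without the block 274 features were higher and 975 lower. Features higher and lower numbered 239 and 974 with median scaling, 7 and 383 without a filter, 4 and 135 with detection on all arrays, and 0 to 1559 and 0 to 1147 in leave-one-out fits. Higher features numbered 54 with normexp, 9 with slide as a block and 20 on the shared slide alone. On the shared slide Id2 was at 2.13 (adjusted p = 0.178), Id4 at 4.02 and Id1 at 1.84. The planned normexp on the mean signal was not run, as the files used here hold the median. A signal near background gives only a bound, and 3 pairs leave intervals over 2 log2 units wide for each ID gene.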

Other observations

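Genes of the wider pathway outside the naming rule were looked at after their values were seen. None of those named here passed the test (limma, adjusted p under 0.05). Cbfa2t3 and Cdkn2b, named by the rule and described above, are set beside them, and of these Cdkn2b passed. The 3 ETO-family corepressors that bind E proteins were all higher in the SMC line of each pair, as were 33.6% of all features. Runx1t1 was at 0.84, 2.35 and -2.10 in non-SMC lines 1, 2 and 3 and at 2.98, 3.48 and 3.52 in SMC lines 1, 2 and 3. Cbfa2t2 was at 2.52, 3.15 and 2.49 in the non-SMC lines and at 4.51, 4.33 and 3.43 in the SMC lines. The groups did not overlap for either gene, as for 22.8% of all features in this direction. For Cbfa2t3 they overlapped, with non-SMC 2 (1.01) above SMC 3 (0.39).

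Of the 5 cyclin-dependent kinase inhibitors among the listed targets, Cdkn1a, Cdkn1b and Cdkn1c were higher in the SMC line of each pair, and Cdkn2a and Cdkn2b lower in each. Of all features, 33.6% were higher in all 3 pairs, and the share lower in all 3 pairs is not given here. Cdkn1a (p21) was at -1.88, 2.44 and 0.04 in non-SMC lines 1, 2 and 3 and at 2.10, 3.03 and 2.61 in SMC lines 1, 2 and 3. Cdkn1c (p57) was at -4.66, 2.15 and 0.98 in the non-SMC lines and at 4.41, 3.05 and 3.92 in the SMC lines. For Cdkn1a, non-SMC 2 lay above SMC 1. For Cdkn1c the groups did not overlap, as for 22.8% of all features in this direction. Its difference was 4.30 ± 1.74 (SE, 3 pairs), with a 95% confidence interval from -0.51 to 9.12 and an adjusted p of 0.214 (limma). Cdkn2a (p16 and p19) was at 2.14, 2.44 and 1.25 in the non-SMC lines and at 1.30, 1.44 and 0.53 in the SMC lines. SMC 1 and SMC 2 lay above non-SMC 3, so its groups overlapped. Cdkn1b (p27) differed by 0.97, 0.18 and 1.07 in pairs 1, 2 and 3, with an adjusted p of 0.252 (limma).

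Bambi, a decoy receptor of the BMP and TGF-beta pathway, was the 1 antagonist of 13 tested with a difference above 0, at 0.95, 1.05 and -0.76 in non-SMC lines and 3.05, 2.54 and 2.69 in SMC lines. Smad7, an inhibitory SMAD, lay the other way, at 1.57, 0.43 and 0.57 in non-SMC lines and -1.17, -1.42 and -0.38 in SMC lines.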
